A study of Rattus norvegicus with 120 samples.

Results

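Stfa3 encodes stefin A3 of the rat, and its level was followed here across the eyes of 120 animals. It is 1 of 12326 genes with a tested probe set. It was read from the probe set of highest mean that bears its name, 1 of the 31099 probe sets in the deposited table and 1 of the 23326 that passed a filter on the mean level. The gene was selected on its measured spread over these animals, so its level, its spread and its shape are given as descriptions. Tests were made only of the title codes, of other genes and of measures taken over whole arrays. The series measured messenger RNA in the pooled eyes of 12-week-old male F2 rats, bred from the inbred strains SHR/SP and SR/jrHSD, as the labels spell them. The first is a hypertensive line prone to stroke. All animals form 1 group without treatment, each gave 1 Affymetrix array, and no parental animals or genotypes were used here. Each F2 animal carries its own mixture of the alleles of both strains. The titles hold an S code with 10 values and an L code with 22 values, neither of which the labels explain, and each probe set was centred within S codes except where stated.

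Stefins are small proteins of the cystatin superfamily that stay inside the cell and block cysteine proteases of the papain type, such as cathepsins B, L, H and S. In humans, stefin A is abundant in stratified epithelia, where it is built into the cornified envelope of keratinocytes, and it is also found in myeloid cells. Rodents have several stefin A genes side by side, which in mice are known from neutrophils and skin. The front of the eye carries stratified epithelia on the cornea, limbus and conjunctiva.

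The rat gene lies in such a cluster on chromosome 11. In RefSeq's GRCr8 gene table, 22 genes lie between Cd86 and Mix23, the nearest genes on each side that were measured, and 9 of these are named Stfa or Csta, 8 of them coding. Of these 9 only Stfa3 and Stfa2l2 had a probe set of their own. The suffix x_at marks a probe set in which some probes also match other sequences, so signal from other stefin A copies in the cluster cannot be told apart from that of Stfa3, and the level is that of the probe set. RefSeq also lists Csta as an older name of Stfa3, while another gene of the cluster bears it as its own symbol.

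The promoter of Stfa3 is shown beside those of 2 genes that followed its level, Cytl1, which followed it most closely, and Sprr1a, a precursor of the cornified envelope. Each sequence runs from 250 bases before the annotated start to 50 bases after it, 5′ to 3′ on the strand of the gene, from RefSeq's GRCr8 build. Stfa3 lies at chr11:77858820-77859119 on the plus strand, Cytl1 at chr14:77283596-77283895 on the minus strand and Sprr1a at chr2:180752576-180752875 on the minus strand. Capitals mark matches to the AP-1 motif TGANTCA or to the TATA motif TATAAA, searched on both strands, which overlap in none of these windows.
Stfa3: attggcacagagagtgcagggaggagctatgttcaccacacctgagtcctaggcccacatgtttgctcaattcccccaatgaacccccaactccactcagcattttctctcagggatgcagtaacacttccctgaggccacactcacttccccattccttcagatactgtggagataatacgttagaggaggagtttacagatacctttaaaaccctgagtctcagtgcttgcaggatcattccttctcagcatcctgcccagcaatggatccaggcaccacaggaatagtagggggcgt
Cytl1: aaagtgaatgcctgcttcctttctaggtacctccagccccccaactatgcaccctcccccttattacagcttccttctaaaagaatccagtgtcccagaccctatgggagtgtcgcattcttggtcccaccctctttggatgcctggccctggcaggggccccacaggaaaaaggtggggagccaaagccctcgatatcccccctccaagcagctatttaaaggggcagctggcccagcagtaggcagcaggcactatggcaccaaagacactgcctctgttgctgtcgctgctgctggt
Sprr1a: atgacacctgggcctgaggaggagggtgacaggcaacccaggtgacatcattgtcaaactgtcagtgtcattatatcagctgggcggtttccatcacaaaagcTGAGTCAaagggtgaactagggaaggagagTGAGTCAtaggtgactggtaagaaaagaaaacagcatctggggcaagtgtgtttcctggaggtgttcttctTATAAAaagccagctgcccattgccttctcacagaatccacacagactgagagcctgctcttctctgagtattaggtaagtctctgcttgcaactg
The Sprr1a window held 2 AP-1 matches, the farther of which began 147 bases before the start, and 1 TATA match 46 bases before it. The windows of Stfa3 and Cytl1 held neither set of letters. Of all 27457 promoters in the RefSeq table, 7.33% held an AP-1 match and 14.26% a TATA match. Of the 15 named genes most positively related to Stfa3, 11 had a promoter in the table, and 1 of the 11 held an AP-1 match and 4 a TATA match.

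The level of Stfa3 differed widely between animals. As deposited, the log2 level was 6.01 in the lowest animal, 8.76 in the median animal and 12.23 in the highest. With S code means removed, the lowest, median and highest animals stood at 6.16, 8.75 and 11.51, and the mean was 8.77 ± 1.28 (SD, n = 120). The outermost animals were then 41.0-fold apart, and the 6th lowest and the 6th highest 23.4-fold. The median SD over all tested probe sets was 0.162. With 1 probe set per gene, Stfa3 had the 6th largest SD, just below that of Ccn1 (1.29) and above that of Ythdf2 (0.948), and it was the 13th among single probe sets. Its mean was higher than that of 86.8% of the tested probe sets.

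The other probe sets of the stefin A cluster were dim. A second probe set named Stfa3 had a log2 level between 2.93 and 3.70 with a median of 3.26. This is below the filter of 4.28, and it had an r of 0.052 with the first. Stfa2l2 was also below the filter in the mean, with a median of 3.13, a highest animal of 5.78 and an r of 0.262 with Stfa3. A low r between dim probe sets is given only as a description.

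The arrays of 3 animals stood apart in genes of cornifying skin, which bears on every relation to keratins below. Krt1, a keratin of the suprabasal epidermis, had a median of 4.68 but stood at 10.63, 7.74 and 7.42 in these animals, the first of which is number 77. Animal 77 also had the highest Krt10 (11.24 against a median of 6.60), Loricrin (10.93 against 5.43) and Stfa3 (12.23). The second had the 8th highest Stfa3 (10.83), and the third was 79th. Krt12, the keratin of the corneal epithelium, lay between 13.17 and 13.20 in all 3, against a median of 13.18. Many of the results below, but not all, are given with and without these 3 arrays. The arrays of animals 63 and 15 were least like the others, with median correlations of 0.937 and 0.970 against 0.989 over all arrays, and 3 arrays had been scanned again. Without the 3 Krt1-rich arrays the SD of Stfa3 was 1.24.

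**Figure D1:**
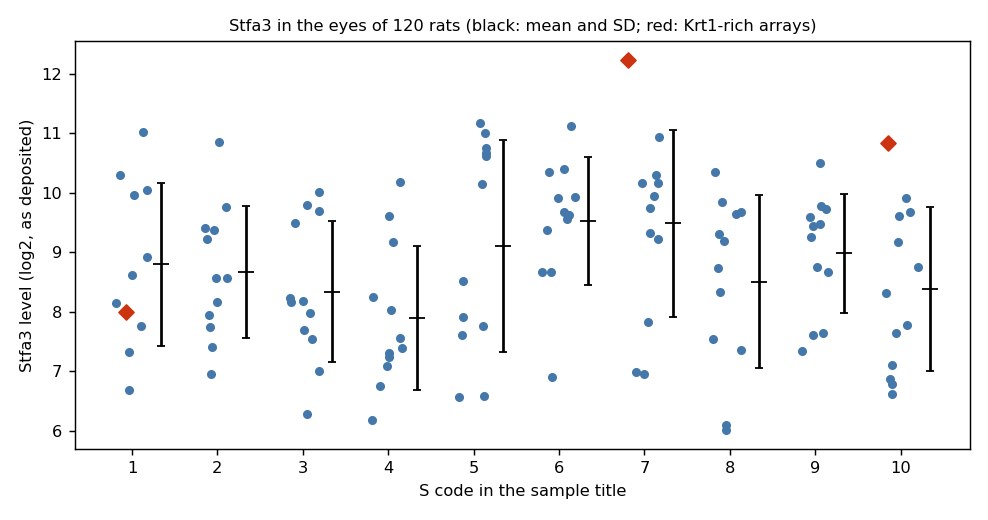
Deposited log2 level of Stfa3 (y axis) in each of the 120 animals by S code (x axis), with the mean and SD of each code in black and the 3 Krt1-rich arrays as red diamonds. The levels run from 6.01 to 12.23, and the animals of every code spread over a range wider than the distance between the lowest and the highest code mean.

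The level of Stfa3 was past the threshold for neither code in the titles. Means of the S codes ran from 7.90 ± 1.21 (SD, n = 12) in S4 to 9.52 ± 1.07 (SD, n = 12) in S6, and the animals of these codes overlapped, from 6.18 to 10.18 in S4 and from 6.91 to 11.13 in S6. The S code took 12.9% of the variance of Stfa3 and was not past the threshold (limma's moderated F test, adjusted p = 0.0657), while 92.1% of all tested probe sets were. With covariates for RNA breakdown, the 3′ minus 5′ signals of the control transcripts of actin and GAPDH, the adjusted p was 0.0389. The means of the L codes ran from 6.90 in L15 (n = 4) to 9.99 in L1 (n = 3). The L code took 23.7% of the S-centred variance, against 19.1% that 21 unrelated terms take on average, and its adjusted p was 0.379, with 4.58% of all tested probe sets past the threshold.

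The values had a broad, flat spread, described here by the fit of several distributions. With S code means removed, the 6 lowest animals lay close together, from 6.16 to 6.27. A gene set by 1 locus with additive alleles has 3 levels in an F2 generation, in the ratio 1:2:1. For Stfa3 the Bayesian information criterion (BIC, lower is better) of such a mixture was 413.5, above the 408.4 of a single normal distribution, a difference of -5.09. Over all tested probe sets, 57 (0.244%) had a 1:2:1 mixture better by more than 10. A mixture of 2 equal classes with levels at 7.77 and 9.69 also had a BIC of 408.4, so 1 class and 2 equal classes described the values about equally well. When S code means were not removed, that mixture was better than the single normal by 10.2, and the 1:2:1 mixture remained worse, by 4.70. The skewness was -0.14 and the excess kurtosis -0.74.

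**Figure D2:**
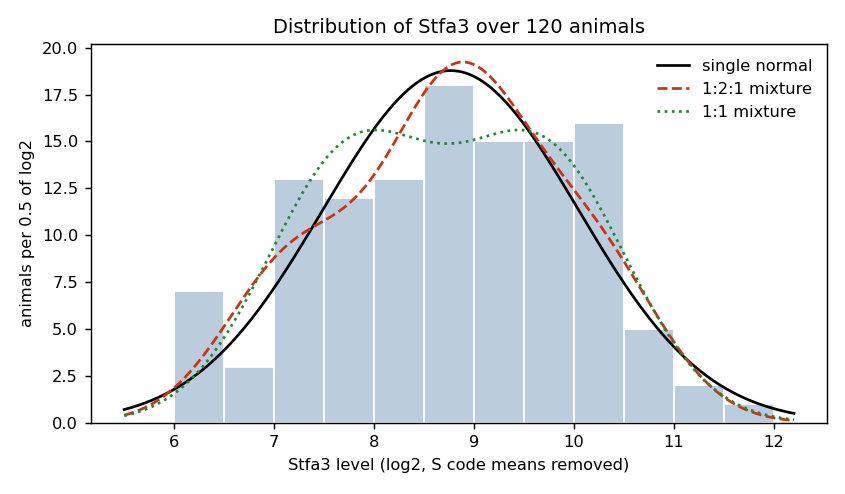
Number of animals (y axis) by log2 level of Stfa3 with S code means removed (x axis), in steps of 0.5, with the fitted single normal (solid), 1:2:1 mixture (dashed) and 1:1 mixture (dotted). The 120 animals spread broadly, with the 6 lowest between 6.16 and 6.27. The BIC of the 1:2:1 mixture was 413.5 against 408.4 for the normal.

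The 15 genes that followed Stfa3 most closely held keratins and cornified envelope genes, some genes best known from cartilage and 7 of mixed or unknown kind. Each other probe set was regressed on the Stfa3 level with the S code as covariate. Of 23325 probe sets, 1577 (6.76%) rose with Stfa3 and 367 (1.57%) fell at an adjusted p under 0.05 (limma). With 1 probe set per gene, 1111 of 12325 genes (9.01%) rose and 0.852% fell. In bulk tissue, fewer cells of a type and less RNA per cell cannot be told apart. The size of these counts rested on few arrays. It was 545 in both directions together without S5, 1114 without S10, 1161 without S3, 951 without L13, 1088 without L22, 1162 without L6 and 1177 without L18, against 1944 in all animals, and 725 without the 3 rescanned arrays.

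Cytl1, which encodes a small secreted protein known from cartilage, was the gene nearest to Stfa3. Its log2 level was 5.92 in the lowest animal, 7.20 in the median and 9.20 in the highest. It rose by 0.347 ± 0.026 (SE) for each unit of Stfa3, or 1.27-fold for each doubling (adjusted p = 3.97e-20). The partial r given the S code was 0.778 and Spearman's rho 0.801, each with a permutation p of 1e-05, the smallest that 100000 permutations within S codes can give. Within single S codes r lay between 0.487 and 0.917 and was positive in all 10. Without the 2 animals farthest from the Stfa3 median it was 0.791, and without the Krt1-rich arrays 0.790. The 2 Krt1-rich animals that were highest in Stfa3 were not the highest in Cytl1.

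Wif1, Col10a1 and Acan, also known from cartilage, stood 4th, 6th and 10th by r. Col10a1, the collagen of hypertrophic cartilage, had levels of 6.10, 7.496 and 8.59 in the lowest, median and highest animals, and an r of 0.663. Wif1, a secreted inhibitor of Wnt proteins, ran from 4.45 over 5.76 to 6.75, with an r of 0.672. Acan, the large proteoglycan aggrecan, ran from 4.88 over 5.43 to 6.22, with an r of 0.566. A second Acan probe set had an r of 0.292. No grouping of these genes and the keratins was tested. Col10a1 and Wif1 had an r of 0.727 with each other, and Acan one of 0.491 with Col10a1. With Krt17, Cytl1 had an r of 0.564, Acan 0.516, Wif1 0.420 and Col10a1 0.403. With Krt14 these were 0.516, 0.357, 0.303 and 0.274.

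Keratin and cornified envelope genes also stood among the 15 genes that followed Stfa3 most closely. Krt17, a keratin of hair follicles and of activated epidermis, had levels of 5.42, 6.38 and 9.54 in the lowest, median and highest animals, and rose by 0.271 ± 0.027 (SE) for each unit of Stfa3 (r = 0.686, adjusted p = 2.44e-13). Its highest animal was number 77, and without the Krt1-rich arrays its r was 0.698. Sprr3 and Sprr1a, small proline-rich proteins that are cross-linked into the cornified envelope, had an r of 0.658 and 0.626, and of 0.635 and 0.609 without those arrays. The Sprr1a promoter is the one printed above with both motifs. Krt14, which pairs with Krt5 in basal cells, ran from 9.38 over 9.89 to 11.26 and had an r of 0.576. Sprr1a and Sprr3 were themselves tied by an r of 0.827.

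The other named genes that rose with Stfa3 were of mixed kind. C18h5orf46 (r = 0.728) and C20h6orf15 (r = 0.669) bear only the names of open reading frames, and both were close to Krt17, with an r of 0.781 and 0.817. The transcription factor Tfcp2l1 had an r of 0.563, Plbd1 one of 0.551, the serine protease inhibitor family member Serpinb11 one of 0.545, Cracr2b one of 0.534 and Bnipl one of 0.532. The lowest r between any 2 of the 15 genes was 0.134, for Bnipl and Acan. Over the 15 genes, r stayed between 0.477 and 0.790 without the Krt1-rich arrays and between 0.484 and 0.791 without the 2 animals farthest from the Stfa3 median. It was positive within at least 8 of the 10 S codes for each gene. All 15 had an adjusted permutation p of 1.2e-05 within the family of 30 relations, the smallest possible, which does not allow for their being picked as the largest, while the limma p over all probe sets does. With 5 principal components as covariates r lay between 0.355 and 0.718. The 5 unnamed probe sets of largest r had values between 0.466 and 0.513.

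**Figure D3:**
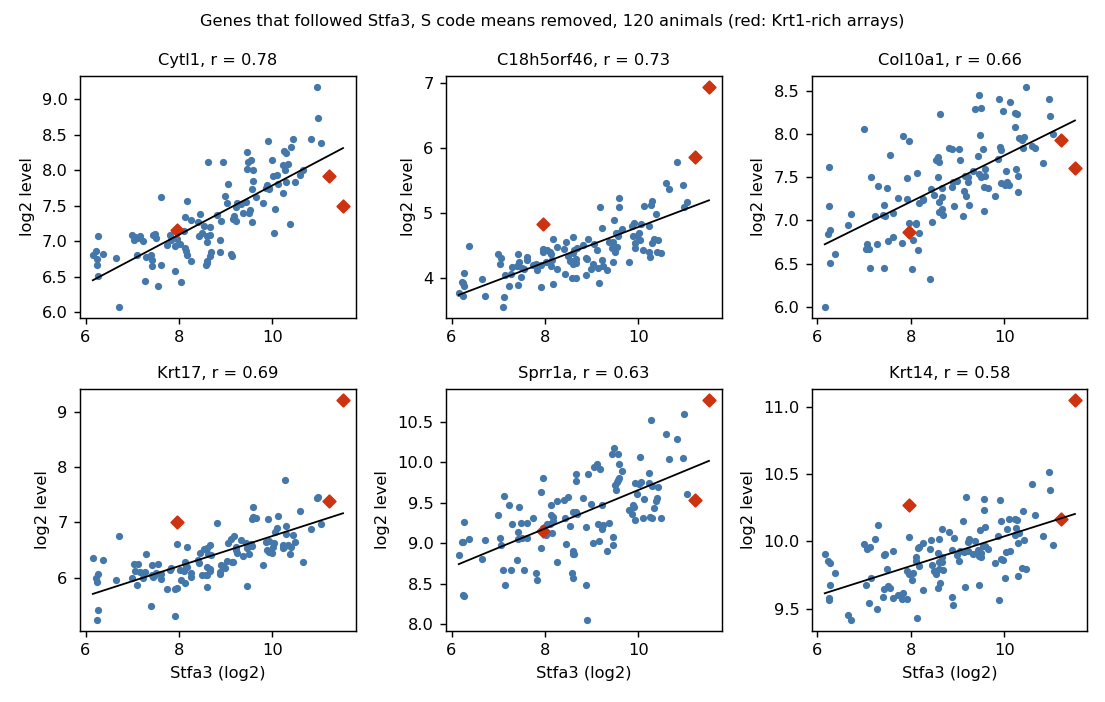
Log2 level of 6 genes (y axes) against that of Stfa3 (x axes), S code means removed, 1 point for each of 120 animals, with the fitted line and the 3 Krt1-rich arrays as red diamonds. Cytl1 rises with Stfa3 with an r of 0.778, and animal 77 lies far above the line for Krt17 and C18h5orf46.

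Relations in the other direction were weaker and often rested on 1 probe set. For the named genes of both directions the probe set of largest absolute r was read, which for 6 of these 10 (Pde8b, Cd2bp2, Med16, Pomk, Map6 and Zfp36l2) was not the brightest. The lowest r was -0.415, for a dim probe set of Pde8b, a cyclic AMP phosphodiesterase, which ran from 3.64 over 4.53 to 5.42 in the lowest, median and highest animals (adjusted p = 0.000757). The other 9 named genes were Vstm2b, the synaptic vesicle gene Svop, Cd2bp2, the Mediator subunit Med16, the kinase Pomk, Arhgef11, the ubiquitin ligase subunit Fbxw7, the microtubule-binding Map6 and the RNA-binding Zfp36l2, with r down to -0.373 for the weakest. The brightest probe sets of those 6 genes did not follow, with an r of -0.060 for Pde8b, 0.112 for Cd2bp2, -0.043 for Med16, 0.117 for Pomk, -0.095 for Map6 and 0.090 for Zfp36l2, so the genes are not said to have fallen. With the brightest probe set of each gene the lowest r was -0.414, for Vstm2b. The second probe set of Fbxw7 had an r of -0.274. Among the genes that rose, Plbd1 had a second, dimmer probe set with an r of -0.044.

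Few other cysteine protease inhibitors could be measured. Of 20 stefin and cystatin genes listed, 3 passed the filter besides Stfa3 and 1 of the 3 rose, with a median r of 0.270 and 2 at an unadjusted p under 0.05. The gene that rose was Cst6, cystatin M/E, an inhibitor of the skin, with levels of 9.13, 9.68 and 10.84 in the lowest, median and highest animals and an r of 0.316 (adjusted p = 0.0186). Cstb, the stefin found in most cells, had an r of 0.270 (adjusted p = 0.0540), and Cst3, cystatin C, one of -0.036. The cystatins Cst7, Cst8, Cst9l, Cst11 and Cst12 and the relatives Ahsg and Fetub had medians between 3.56 and 4.17 and were below the filter. Among 10 measured papain-family proteases and legumain 1 rose, a share near the 9.01% of all genes, and 4 had an unadjusted p under 0.05. The gene that rose was Ctss (r = 0.308, adjusted p = 0.0227), a cathepsin of antigen-presenting cells. Ctsh and Ctsc had an r of 0.276 and 0.252 and were not past the threshold. The share of all genes at an unadjusted p under 0.05 was not counted, so such counts, here and below, stand without a background.

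Many epithelial genes rose with Stfa3. Of 68 measured genes in 5 epithelial lists, 33 rose and 0 fell, with a median r of 0.261, while 9.01% of all genes rose, with a median r of 0.084. All of these lists were chosen with results of these data known. The count was 25 without the Krt1-rich arrays, where 799 of all 12325 genes rose. It was between 23 and 36 with single S or L codes left out, where between 379 and 1497 of all genes rose. With 5 principal components as covariates it was 7, where 46 of all 12325 genes rose. With Krt14 as covariate, a setting chosen after seeing the data, 13 of 67 rose and 8 fell, where 24.7% of all genes rose and 9.28% fell.

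The epithelial classes differed in their counts, though no test of this difference was made. Of 17 epithelial keratins 10 rose, among them Krt17, Krt14 and Krt13, the last a keratin of the conjunctiva and of other wet stratified epithelia (r = 0.462, level 11.21 to 12.30). Of 15 cornified envelope and barrier genes 10 rose, led by Sprr3, Sprr1a and Scel (sciellin, r = 0.503). Of 20 junction genes and epithelial regulators 9 rose, led by the transcription factor Klf5 (r = 0.504), the desmosome protein Pkp1 (r = 0.481) and Epcam (r = 0.431). Of 8 goblet cell genes 3 rose. They were Muc5ac, the gel-forming mucin of tears (r = 0.433, level 8.06 to 10.20), Agr2, which folds mucins (r = 0.396), and Spdef, a regulator of goblet cells (r = 0.338). Without the Krt1-rich arrays the counts were 7 epithelial keratins, 7 cornified envelope and barrier genes, 9 junction genes, 2 goblet cell genes and 0 corneal epithelial enzymes.

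Among genes of the cornea, Krt12 was near the top of the scale, and 1 of 8 enzyme and growth factor genes rose. No difference between lists was tested. The corneal keratin Krt12 had an r of -0.101, at a mean level of 13.17 with an SD of 0.059. Krt5 (mean 12.58, SD 0.075) had an r of 0.240 and Krt15 (mean 12.11, SD 0.118) one of 0.384. Whether the small spread of Krt12 bears on its r was not tested. Of 8 corneal epithelial enzyme and growth factor genes 1 rose, a share of 12.5% beside 9.01% of all genes. It was Areg, a ligand of the epidermal growth factor receptor (r = 0.278, adjusted p = 0.0388), which was not past the threshold without the Krt1-rich arrays. Tkt, transketolase, had an r of -0.138, and the median of the 8 was 0.016. The 3 probe sets of Krt6c, another highly variable keratin, had an r of 0.186, 0.266 and 0.160 with Stfa3.

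Over all immune lists, genes rose about as often as genes in general. Of 73 measured genes in 9 immune lists, 7 rose and 0 fell, a share of 9.59% beside 9.01% of all genes, with a median r of 0.092. The 7 were Cd68, a lysosomal protein of macrophages (r = 0.441, level 6.97 to 8.06, adjusted p = 0.000306), the leukocyte antigen Ptprc (r = 0.365), Lcp1 (r = 0.273), the mast cell proteases Cma1 (r = 0.289) and Cpa3 (r = 0.279), and the MHC class II genes RT1-Da (r = 0.297) and RT1-Db1 (r = 0.275). They were 3 of 17 macrophage and microglia genes (median r 0.190, 9 at an unadjusted p under 0.05), 2 of 7 mast cell and eosinophil genes and 2 of 8 MHC class II genes. The count was 3 without the Krt1-rich arrays, 2 without the rescanned arrays and between 2 and 9 with single codes left out. Of all 12325 genes, 799 rose without the Krt1-rich arrays and 461 without the rescanned arrays. Neutrophil genes were near the bottom of the scale. Of 20 listed, 3 passed the filter and 0 of them rose by limma (1 at an unadjusted p under 0.05, Il1r2, with an r of 0.249 and an adjusted p of 0.0680). S100a8 and S100a9, the main cytosolic proteins of neutrophils, had medians of 3.396 and 3.73 and highest animals of 6.15 and 6.15. Of 12 interferon-response genes 0 were past limma's threshold and 2 had an unadjusted p under 0.05, led by Ifi44 at an r of 0.229 (adjusted p = 0.0951). Of 9 MHC class I and antigen processing genes 0 passed and 4 had an unadjusted p under 0.05, and of 10 inflammatory mediators 0 and 2. Of 5 T and NK cell genes 0 passed and 1 had an unadjusted p under 0.05, and of 2 B and plasma cell genes 0 and 0. The unadjusted counts of the immune lists have no share of all genes beside them and are given as descriptions.

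Some genes of other tissues of the eye and orbit also moved with Stfa3. Of all 12325 genes, 9.01% rose and 0.852% fell, and 8476 had an r above 0. Of 12 skeletal muscle genes, which the extraocular muscles express, 8 rose, with a median r of 0.299. The muscle genes that rose were led by Myh2 (r = 0.377), Tnni2 (r = 0.334) and Acta1 (r = 0.318). For skeletal muscle the count was 8 without the Krt1-rich arrays, 3 without the rescanned arrays, 3 with the 3′ to 5′ differences as covariates and 1 with L code effects removed. Of all 12325 genes, 799, 461, 500 and 1306 rose in these settings. Of 4 lacrimal and Harderian gland genes 1 rose, Scd (r = 0.295), which had its highest level, 12.48, in animal 77. All 7 measured rod photoreceptor genes had an r below 0, with a median of -0.185, and Prph2 fell (r = -0.304, adjusted p = 0.0351). All 10 lens genes had an r below 0, with a median of -0.110, and 0 were past the threshold by limma (1 at an unadjusted p under 0.05), where Bfsp2 was lowest at an r of -0.260 (adjusted p = 0.0676). Among 4 red blood cell genes 0 were past limma's threshold and 1 had an unadjusted p under 0.05, Slc4a1 with an r of -0.201. The part that the makeup of the dissected tissue has in the epithelial counts was not tested.

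**Figure D4:**
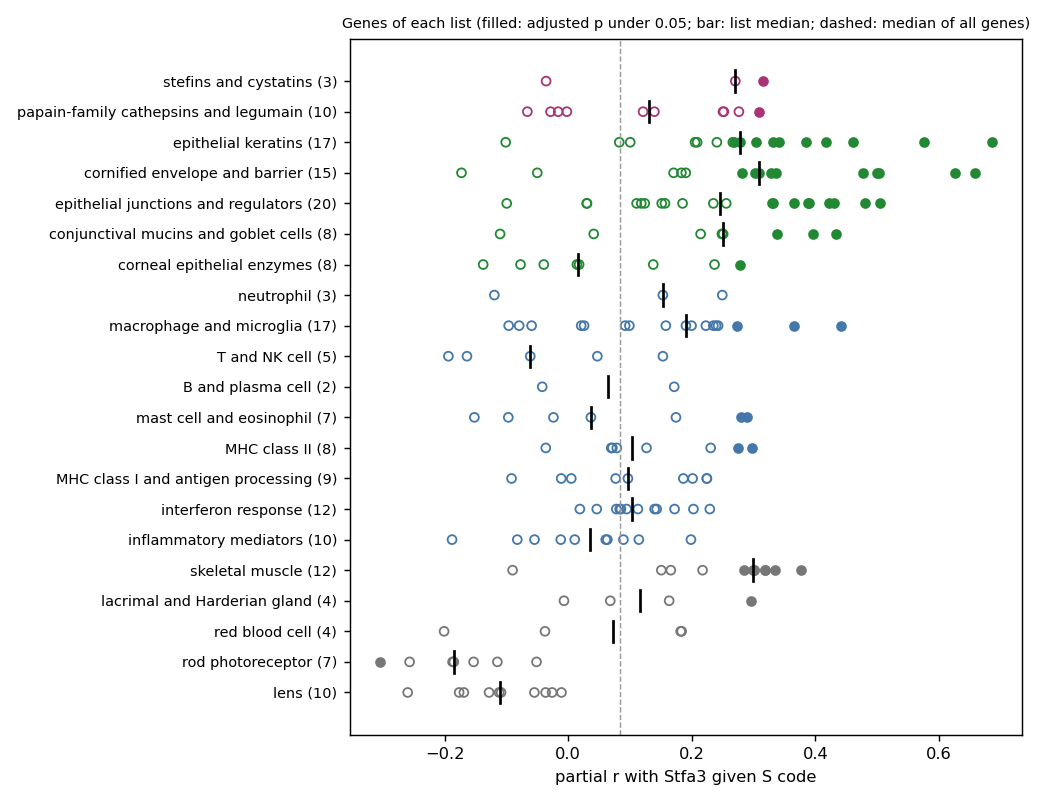
Partial r with Stfa3 given the S code (x axis) for each measured gene of 21 lists (y axis, number of genes in parentheses), filled where the adjusted p was under 0.05, with list medians as bars and the median of all genes, 0.084, as a dashed line. The epithelial lists other than corneal enzymes lie to the right, with medians from 0.245 to 0.309. So do skeletal muscle (0.299) and the stefins and cystatins (0.270), while all rod and lens genes lie below 0.

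Some measures taken over whole arrays were also related to Stfa3. The 9 measures held 5 principal components of the tested probe sets, which sum up shared variation of any source, beside measures of array and RNA quality. Of the 9, the 5th principal component had the largest r, 0.401 (rho = 0.399, adjusted permutation p = 0.00018). The first followed with 0.266 (rho = 0.289, adjusted permutation p = 0.021). Without the 2 farthest animals these were 0.379 and 0.279. The 3′ minus 5′ signals of actin and of GAPDH, which grow as RNA breaks down, had an r of 0.190 and 0.198, each with an adjusted permutation p of 0.081, and a rho of 0.242 and 0.248, each with an adjusted permutation p of 0.020. The array median had an r of -0.049. With the 3′ minus 5′ signals of both actin and GAPDH as covariates 760 probe sets were past the threshold, and Cytl1 kept an r of 0.771.

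Genes near Stfa3 on chromosome 11 had an r of at most 0.310. Of the 10 nearest measured genes on each side, 5 rose and 0 fell, with a median r of 0.137, beside 9.01% of all genes and a median of 0.084. These were the peptide transporter gene Slc15a2 (r = 0.288), Ildr1 (r = 0.310), Rabl3 (r = 0.276) and the neighbours Parp9 (r = 0.290) and Parp14 (r = 0.287). With the rescanned arrays left out 0 of the 20 were past the threshold by limma, and without the Krt1-rich arrays 3 were. Cd86 and Mix23, the closest on each side, had an r of 0.138 and 0.223. Over the 327 measured genes of the chromosome 25 rose (7.65%) and 2 fell, so the share was below that of all genes. The largest r on the chromosome belonged to Ripk4, a kinase of epidermal differentiation (r = 0.431), Tiam1 (r = 0.390) and Tp63, the regulator of basal stratified epithelium (r = 0.390), far from Stfa3 in gene order. Chromosome 2, which holds Sprr1a and Sprr3, had the largest share of genes that rose, 14.5% of 792.

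**Figure D5:**
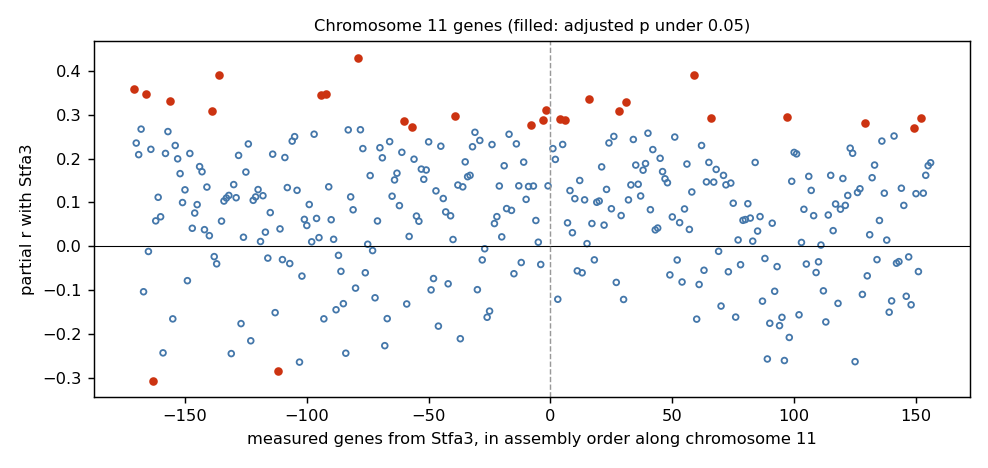
Partial r with Stfa3 (y axis) of 327 measured genes of chromosome 11, by the number of measured genes between each and Stfa3 in assembly order (x axis), filled where the adjusted p was under 0.05. Values of the 20 genes nearest to Stfa3 stay at or below 0.310, and the largest, 0.431, lies on the left, 79 measured genes away.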

How the data were processed

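RNA from both eyes of each of 120 rats was extracted with TRIzol, cleaned on RNeasy columns and labelled in 1 cycle, per the labels' protocols. The deposited values are on the log2 scale and were made with RMA (robust multi-array averaging) by the authors, per the submitters' processing notes, which give no version. RMA corrects background, draws the array distributions together and combines the probes of a set, so it can hide a shift common to most transcripts. The number of arrays limits precision. Array medians lay between 5.78 and 5.96, and array 75th percentiles between 7.11 and 7.71, so the deposited distributions were not identical. No genome build for the probe sets is given in the sources used here.

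The 57 controls were left out, and the 23326 probe sets whose mean reached 4.28, the 25th percentile of the table, were tested. Of the others in the table, 20826 had 1 symbol in the platform annotation, 436 several and 9780 none, and 20758 of those with 1 symbol were found in RefSeq's GRCr8 gene table by Entrez number, which updated the symbols and gave gene order. For counts over genes and lists, genes were read from their probe set of highest mean, and the named genes most related to Stfa3 from that of largest absolute r. Slopes on Stfa3 and code effects were tested with limma 3.58.1 in R 4.3.3, with the S code as covariate, Benjamini-Hochberg adjustment over all tested probe sets and a threshold of 0.05. A 1:2:1 mixture was called where its BIC was lower by more than 10 than the best of a normal, t and skew-normal distribution. Relations of named genes, principal components and quality measures to Stfa3 were also tested, two-sided, with 100000 permutations within S codes. The p-values measure the spread between animals together with the error of single arrays. The slope test, the L code test and the mixture call were tested on simulated data.

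Named genes were the 15 most positive and 10 most negative, up to 5 unnamed probe sets, up to 3 genes of each list, each measured stefin and cystatin, and 10 neighbours on each side. Of 288 members of the 21 lists, 191 were measured above the filter, 47 fell below it and 50 lacked a probe set of their own. Stfa3, the lists and the tests were chosen with earlier results of these data known. Alternatives were no removal of S code means, other filters, thresholds and scales, arrays or codes left out, and covariates. Krt14 as covariate and leaving out the 3 arrays with a Krt1 level more than 2 above its median were chosen after seeing the data.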

Additional observations from a re-analysis of the deposited data

How the results depend on the processing

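No paired analysis was possible because there is a single group of animals. The SD of Stfa3, 1.28, lay between 1.22 and 1.31 with single S or L codes left out, and was 1.12 with L code effects removed, 1.11 with 5 principal components removed and 1.05 with Krt14 as covariate. The 1:2:1 mixture was not better than the best single distribution in any setting tried, with BIC differences between -6.61 and -3.81 over the codes left out. The S code test of Stfa3 crossed the threshold with the 3′ to 5′ differences as covariates (adjusted p = 0.0389), and the L code test did so in no setting tried.

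The number of probe sets past the threshold in both directions, 1944, was 557 at an adjusted p of 0.01, 991 without removal of S code means, 725 without the rescanned arrays, 1003 without animals 63 and 15, 79 with 5 principal components, 760 with the 3′ to 5′ differences and 8540 with Krt14 as covariate, and 545 to 2738 with single codes left out (without S5 and without L2). The epithelial count of 33 was 19 at 0.01, 7 with 5 principal components and 21 with Krt14 (13 higher, 8 lower), and 23 to 36 with codes left out. It moved by 1.5 times or less in the other 10 settings, and no epithelial gene fell except with Krt14. Of all 12325 genes, 385 rose at 0.01 and 46 with 5 principal components.

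The immune count of 7 was 2 at 0.01, without the rescanned arrays, with the 3′ to 5′ differences and without the 2 animals farthest from the Stfa3 median, 4 without animals 63 and 15, 3 without the Krt1-rich arrays, 0 with 5 principal components and 16 with Krt14, and 2 to 9 with codes left out. The neighbour count of 5 was 0 at 0.01, without the rescanned arrays, with 5 principal components and with the 3′ to 5′ differences, 2 without removal of S code means and without animals 63 and 15, 3 without the Krt1-rich arrays, 10 with Krt14, and 0 to 6 with codes left out. For each of these moves the cause was not tested. The 15 named genes that rose with Stfa3 had an r of at least 0.336 in each alternative run on them, Krt14 left out of the one that used it.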

Other observations

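Because Cytl1, Col10a1, Wif1 and Acan stood among the genes nearest to Stfa3, a list of 20 genes known from cartilage was drawn up after their values were seen, and its values are a description without a test. Of the 20, 16 were tested, 1 was below the filter and 3 had no probe set of their own. The 4 genes that prompted the list are left out of what follows, which leaves 12. Of these, 9 had an r above 0, as did 8476 of all 12325 genes. The median r of the 12 was 0.140 beside 0.084 over all genes. Matn1, a matrilin of cartilage, had an r of 0.502, and Col2a1, the main collagen of cartilage, which is also abundant in the vitreous, one of 0.358. Col11a1 had an r of 0.255 and Cnmd, chondromodulin, one of 0.242. Col9a1, Col11a2 and Chad had an r of -0.097, -0.099 and -0.014. Mean log2 levels lay between 4.42 (Hapln1) and 9.48 (Col9a1) over the tested genes.

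The relation of Cytl1 to Stfa3 was also present once Krt14 was accounted for. With Krt14 as covariate, Cytl1 had an r of 0.687, Col10a1 one of 0.643 and Wif1 one of 0.638. C18h5orf46 had 0.561, C20h6orf15 0.499, Sprr3 0.479, Krt17 0.474, Acan 0.473, Sprr1a 0.391 and Bnipl 0.336.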
